A study of Caenorhabditis elegans with 2 samples.

Results

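The genes described here encode collagens of the Caenorhabditis elegans cuticle that are named for the body shapes of their mutants, dumpy (Dpy), roller (Rol) and squat (Sqt). They were taken by symbol from a list of 10 genes, dpy-2, dpy-3, dpy-5, dpy-7, dpy-8, dpy-10, dpy-13, rol-6, sqt-1 and sqt-3. Of these, 9 had a line in the deposited table of 19487 genes. dpy-5 is annotated as a single exon, and it was not analysed here. The table gives exon and intron reads of mixed-stage embryos of the strain BW1943, with 1 library from 25 °C and 1 from 16 °C. The genotype of both is gad-1(ct226) with dpy-11(e224). No wild type library is among those analysed, so temperature and the effect of the mutation cannot be told apart, and neither temperature has a replicate. Gastrulation requires GAD-1, which contains WD repeats, and the title of the series links it to splicing and transcription elongation. DPY-11 is a thioredoxin-like protein of the epidermis, and its loss also shortens the body, so the worms at both temperatures carry a body-shape mutation in addition to gad-1.

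The cuticle is an extracellular coat that the epidermis secretes first in the late embryo and again before each moult. Its collagens are short proteins with glycine-rich triple-helical repeats, which are hydroxylated, trimerised, cleaved and crosslinked on their way to the matrix. DPY-2, DPY-3, DPY-7, DPY-8 and DPY-10 are known as furrow collagens, because they form the circumferential furrows that divide the surface into annuli. SQT-3, SQT-1, ROL-6, DPY-5 and DPY-13 are structural collagens outside that furrow group, and particular alleles of sqt-1 and rol-6 twist the body into a left or right helix. In embryos of mixed stages and whole-embryo RNA, fewer epidermal cells, fewer late embryos and less RNA per cell cannot be told apart.

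The members are short genes with little intron sequence. In Ensembl release 115 (WBcel235), dpy-10 lies on chromosome II from 6710149 to 6712227 on the minus strand. Its neighbour dpy-2 lies on chromosome II from 6714292 to 6715971 on the plus strand. This pair is divergent, with 2064 bases between their annotated starts. rol-6 lies on chromosome II from 8733050 to 8734239 (plus strand), and sqt-1 from 11336693 to 11337837 (minus strand). The members on chromosome X are all on the minus strand, with dpy-3 from 2144605 to 2145647, dpy-8 from 5148804 to 5150476 and dpy-7 from 7536467 to 7537792. dpy-13 lies on chromosome IV from 4235614 to 4236710 (plus strand) and sqt-3 on chromosome V from 12352745 to 12354320 (plus strand). In the deposited table the summed intron length ranged from 47 bases in sqt-1 to 438 bases in dpy-10. Exon and intron lengths both equalled those of this annotation in 3 of the 9 members, so the gene models the authors used differ in part.

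**Figure D1:**
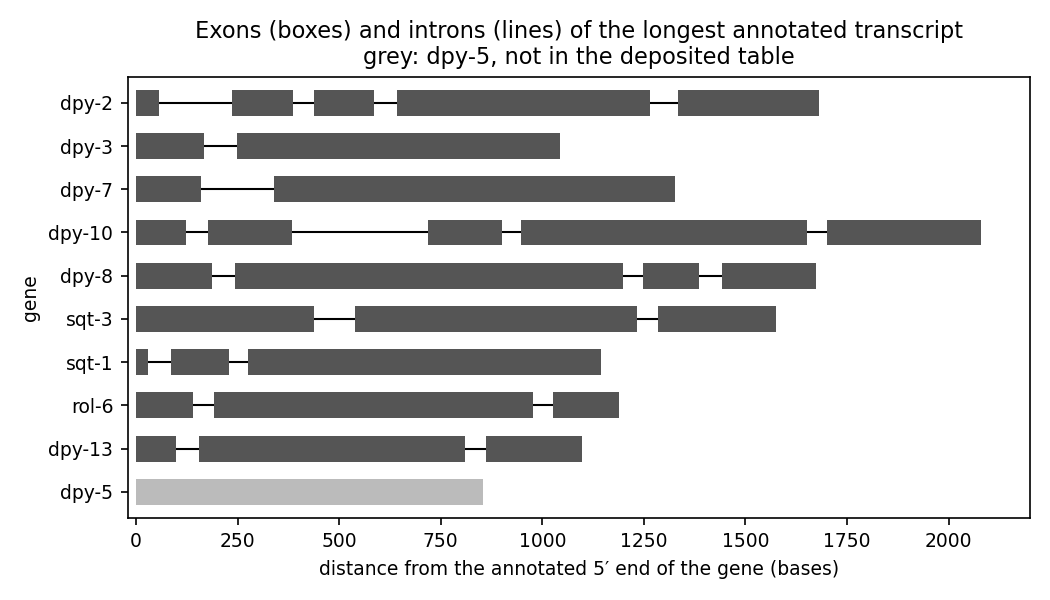
Annotated exons (boxes) and introns (lines) of the longest transcript of each member, by distance in bases from the 5′ end of the gene. dpy-3 and dpy-7 have 1 intron each, dpy-10 and dpy-2 have 4, and dpy-5 has none. The intron of 335 bases in dpy-10 is the longest among the members.

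The 9 members fell into 5 with at least 1990 exon reads in each library and 4 with almost none. The 5 abundant members were sqt-3 and the furrow collagens dpy-2, dpy-3, dpy-7 and dpy-10. The other 4 were dpy-8, dpy-13, rol-6 and sqt-1, none of which had more than 7 exon reads in a library. This division was made after the values were seen, and no member lay between 7 and 1990 reads. Levels below are RPKM values, that is exon reads scaled by the deposited exon length and by the library total of exon plus intron reads, so that they can be compared between genes. CPM values are scaled by the library total alone. The libraries held 18175617 reads at 25 °C and 22016818 at 16 °C, and intervals cover counting error only.

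sqt-3 was the most abundant member and one of the most abundant transcripts of the embryo. SQT-3 is needed to hold the elongated shape of the late embryo, and its C-terminal propeptide is removed by the protease DPY-31. It had 23652 exon reads at 25 °C and 50024 at 16 °C, a level of 1115 RPKM at 25 °C and 1947 at 16 °C. In rank of level it was number 20 of 19487 genes at 25 °C and number 10 at 16 °C. An antisense RNA gene, F23H12.13, overlaps it by 144 bases. Its scaled exon reads were 1.75-fold lower at 25 °C (95% interval 1.72 to 1.77). sqt-3 alone held 65.3% of the members' exon reads at 25 °C and 69.5% at 16 °C.

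The 4 abundant furrow collagens were about an order of magnitude below sqt-3 and were also lower in the 25 °C library. dpy-10, whose alleles include both dumpy and roller mutants, had 5429 exon reads at 25 °C and 9001 at 16 °C, a level of 178 RPKM at 25 °C and 244 at 16 °C. Its scaled reads were 1.37-fold lower (1.32 to 1.42). The adjacent dpy-2 had 2986 exon reads at 25 °C and 4965 at 16 °C, a level of 124 RPKM at 25 °C and 170 at 16 °C, and was 1.37-fold lower (1.31 to 1.44). The pair therefore differed from one another by less than the counting error, with a ratio of their changes of 0.997 (0.942 to 1.06).

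dpy-7, a collagen widely used as an epidermal marker, had 2174 exon reads at 25 °C and 3744 at 16 °C, a level of 99.9 RPKM at 25 °C and 142 at 16 °C. It was 1.42-fold lower, a log2 change of -0.51 (-0.58 to -0.43). dpy-3 had 1990 exon reads at 25 °C and 4181 at 16 °C, a level of 114 RPKM at 25 °C and 198 at 16 °C. It was 1.73-fold lower (1.64 to 1.83), close to sqt-3 and below the other 3 furrow collagens. By level the order at 25 °C was sqt-3, dpy-10, dpy-2, dpy-3 and dpy-7, while at 16 °C dpy-3 stood above dpy-2.

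Of the 10 pairs among these 5 genes, 4 had a ratio of changes whose interval held 1, and 6 did not. The pairs whose interval held 1 were dpy-2 with dpy-7, dpy-2 with dpy-10, dpy-7 with dpy-10, and dpy-3 with sqt-3 (ratio 1.01, 0.952 to 1.06). The changes thus lay at 2 sizes, with dpy-2, dpy-7 and dpy-10 near 1.4-fold lower and dpy-3 and sqt-3 near 1.7-fold lower. dpy-10 over sqt-3 had a ratio of changes of 1.28 (1.23 to 1.32). Variation between libraries is not in these intervals and cannot be had from 1 library per temperature.

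**Figure D2:**
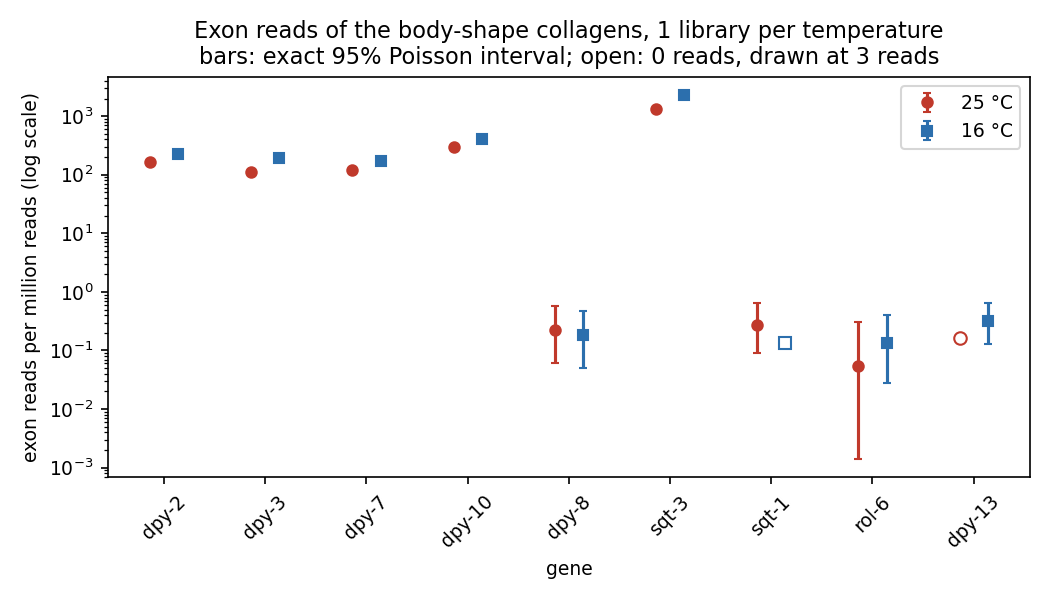
Exon CPM (reads scaled by library total, log scale) of the 9 members in the 25 °C library (circles) and the 16 °C library (squares), with exact 95% Poisson intervals. dpy-2, dpy-3, dpy-7, dpy-10 and sqt-3 lie at 109 CPM or more and are lower at 25 °C, whereas dpy-8, sqt-1, rol-6 and dpy-13 lie below 1 CPM. Open symbols stand for 0 reads and are drawn at 3 reads.

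The 4 members near 0 differ in role. dpy-8, a furrow collagen like the 4 abundant ones, had 4 exon reads at 25 °C and 4 at 16 °C, a level of 0.130 RPKM at 25 °C and 0.107 at 16 °C, against at least 99.9 RPKM in the abundant furrow collagens. It overlaps C31H2.14, a gene on the opposite strand, by 109 bases, and whether the counting used strand is not known. sqt-1 had 5 exon reads at 25 °C and 0 at 16 °C, where 0 reads allow up to 0.136 CPM, so its 5 reads were 2.02-fold above that floor of 3 reads. The exact interval of the ratio, which also covers the counting error of the 5 reads, starts at 1.11-fold higher. rol-6, whose product acts together with SQT-1, had 1 exon read at 25 °C and 3 at 16 °C (ratio 0.404, 0.00769 to 5.03). dpy-13, whose mutants are dumpy, had 0 at 25 °C, which allows up to 0.165 CPM, against 7 at 16 °C, which is 1.93-fold above the same floor. The exact interval starts at 1.19-fold lower at 25 °C. Summed over these 4 genes, 10 exon reads at 25 °C and 14 at 16 °C were found, and no difference of the sum was detectable (ratio 0.865, 0.344 to 2.09). In that sum the 5 reads of sqt-1 at 25 °C and the 7 reads of dpy-13 at 16 °C offset each other. Both counts lie under the minimum of 10 exon reads used for the counts of changed genes.

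Differences of exon reads were described by size alone. A minimum of 10 exon reads in either library was met by 5 members, and among these 0 were 2-fold or more lower at 25 °C and 0 were 2-fold or more higher. Of the 14313 genes that met it, 33.9% were 2-fold or more lower and 5.9% were 2-fold or more higher. At 1.5-fold, 2 of the 5 (dpy-3 and sqt-3) were lower, against 44.3% of all genes. The members' median log2 change was -0.51 and that of all 14313 genes -0.42. In the 6404 genes with at least 1000 combined exon reads, a set that holds the 5 members, the median was -0.08. A scaling by trimmed mean of M values (TMM) raised all log2 changes by 0.34, the -0.42 of all genes included, and under it the 5 members lay between -0.47 and -0.12.

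Each member was also set beside the genes whose 16 °C level lay within 0.25 of its own on the log2 scale. The 16 °C level is the denominator of the change as well, so such windows favour genes that are lower at 25 °C. Their medians are therefore no neutral background, and no conclusion is drawn from them. dpy-2 had a log2 exon change of -0.46, against a median of -0.33 in the 288 genes near it, and dpy-10 one of -0.45, against -0.43 in 182 genes. dpy-3 had -0.79, against a median of -0.36 in 242 genes, of which 22.3% were lower still. dpy-7 had -0.51, against a median of -0.32 in 379 genes. sqt-3 had -0.80, against a median of -1.70 in the 8 genes that lay that near to it. The genes most like the median of the 5 members were sought among 12087 by a distance in exon change, 16 °C level and intron share. They were hil-4, DY3.8, ZK686.3, nduv-2, tsr-2 and ify-1, which are alike by that rule alone. hil-4, the nearest, had a level of 138 RPKM at 25 °C and 201 at 16 °C.

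The other collagen genes of the table are given beside the members. In the table, 163 genes carry a col- name or a name among the members or the other named body-shape and blister collagens, and 26 of them had at least 1000 combined exon reads, a minimum chosen after seeing the values. All 5 members among the 26 lay within 2-fold, as did 5447 of the 6404 genes of the whole table with that many reads. The 19 col- genes among the 26 ranged in log2 change from -9.06 to 1.46. Those below -1 had 3 to 309 exon reads at 25 °C and 1076 to 11877 at 16 °C. Their 16 °C reads alone met the minimum and their 25 °C reads alone did not, so their place among the 26 came from the library in which they were higher. Their values are therefore given for single genes and are no comparison with the members.

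Several col- genes, named after their values were seen, were far lower at 25 °C. col-165 had 158 exon reads at 25 °C and 11877 at 16 °C, 62.1-fold lower (53.0 to 73.1), with a 16 °C level of 509 RPKM. col-10 had 54 exon reads at 25 °C and 3652 at 16 °C, 55.8-fold lower (42.7 to 74.5). Its 16 °C level was 173 RPKM. col-125 had 3 exon reads at 25 °C and 2267 at 16 °C, a ratio of 0.00160 (0.000330 to 0.00469). In contrast, col-121 and col-99 were each 1.74-fold lower, as sqt-3 was at 1.75-fold, and col-76 was 2.76-fold higher (2.58 to 2.95). Of all reads in the 163 genes, the 5 abundant members held 30.7% at 25 °C and 33.1% at 16 °C.

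**Figure D3:**
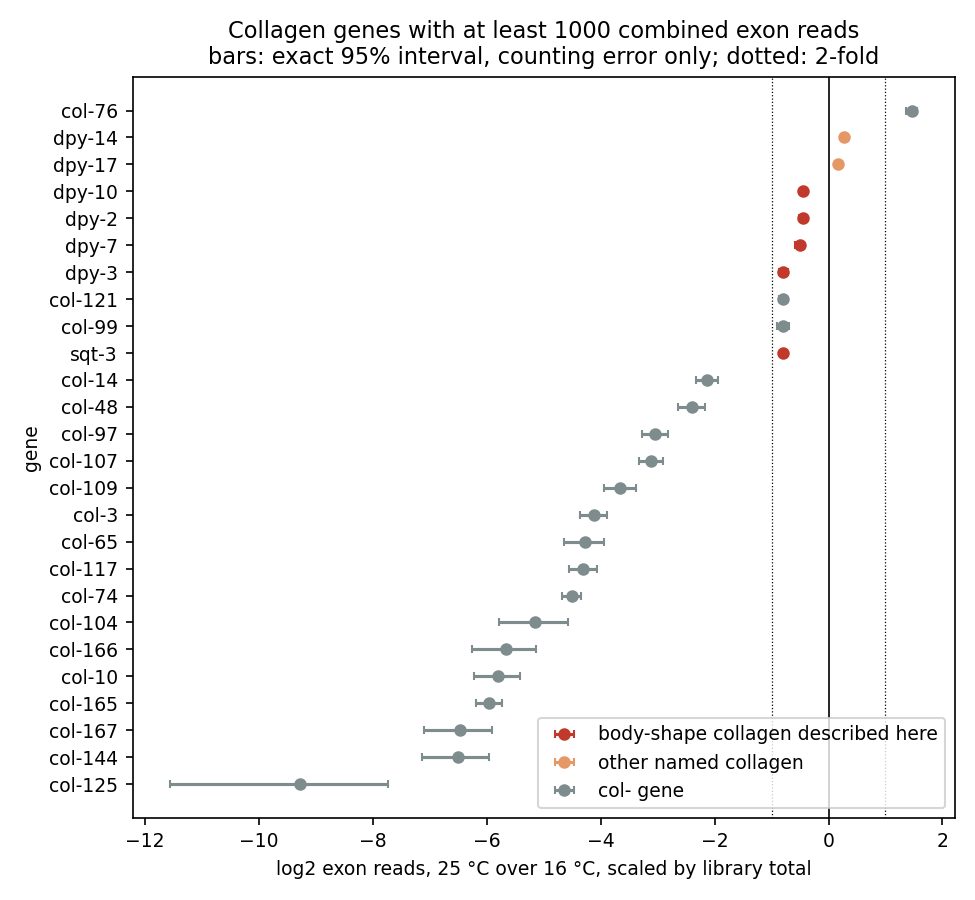
Log2 ratio of library-scaled exon reads, 25 °C over 16 °C, for the 26 collagen genes with at least 1000 combined exon reads, with exact 95% intervals that cover counting error only and dotted lines at 2-fold. The 5 members lie between -0.80 and -0.45, dpy-14 and dpy-17 just above 0. The col- genes below the lower dotted line met the minimum through their 16 °C reads alone.

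Among the other named body-shape and blister collagens, a list of 12 of which 11 were in the table, dpy-17 and dpy-14 were as abundant as sqt-3 and were not lower at 25 °C. DPY-17 is a collagen that is secreted and processed together with SQT-3. dpy-17 had a level of 1801 RPKM at 25 °C and 1610 at 16 °C, and scaled exon reads 1.12-fold higher at 25 °C (1.10 to 1.13). dpy-14, an embryonic collagen, had a level of 1797 RPKM at 25 °C and 1481 at 16 °C, 1.21-fold higher (1.20 to 1.23). sqt-3 was thus the highest of these 3 genes at 16 °C and the lowest at 25 °C. The change of sqt-3 over that of dpy-17 was 0.512 (0.501 to 0.523), and over that of dpy-14 it was 0.472 (0.462 to 0.482). Of the 8 listed genes that met the minimum of 10 exon reads, 3 were past 2-fold lower and 1 was past 2-fold higher. Over all genes these shares were 33.9% and 5.9%. lon-3, a collagen whose loss lengthens the body, had 34 exon reads at 25 °C and 174 at 16 °C, 4.22-fold lower (2.91 to 6.30). The furrow collagen dpy-9 had 4 exon reads at 25 °C and 11 at 16 °C, which places it beside dpy-8 and not beside the abundant furrow collagens. The basement membrane collagens emb-9 and let-2 were 1.06-fold (1.04 to 1.08) and 1.03-fold (1.02 to 1.05) higher at 25 °C, and the third of that list, cle-1, was 2.00-fold lower (1.77 to 2.27).

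Most enzymes that process cuticle collagens, like most genes of the table, were within 2-fold. Of the 16 processing and crosslinking genes that met the minimum, 2 were past 2-fold lower, 0 were past 2-fold higher and 14 lay in between, with a median log2 of -0.22. Over the whole table, 8623 of the 14313 genes that met it lay in between. So did 5447 of the 6404 genes with at least 1000 combined exon reads. dpy-31, the protease that cleaves SQT-3, had 697 exon reads at 25 °C and 817 at 16 °C (ratio 1.03, 0.933 to 1.14). dpy-18, a prolyl 4-hydroxylase subunit, was 1.12-fold lower (1.07 to 1.17), a direction that turns under TMM, and its partner pdi-2 1.21-fold higher (1.19 to 1.22). The 2 lower genes were bli-3, the dual oxidase that crosslinks collagens through tyrosine, at 2.47-fold (2.24 to 2.73), and bli-5, a protease inhibitor-like gene with 0 reads at 25 °C against 36 at 16 °C, a difference of at least 9.91-fold against the floor of 3 reads and at least 7.65-fold by the exact interval. The mutated gene dpy-11 had 4878 exon reads at 25 °C and 7693 at 16 °C, 1.30-fold lower (1.26 to 1.35), and gad-1 had 2748 at 25 °C and 3123 at 16 °C (ratio 1.07, 1.01 to 1.12). Reads do not show what either allele does to its protein.

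Apical matrix genes split widely. This list covers the precuticle, the transient coat laid down before the collagens, and cuticlins, which are insoluble cuticle proteins. Of 13 genes with enough reads, 4 were at least 2-fold lower, against 33.9% of all genes, and 9 within 2-fold. noah-1, a zona pellucida protein of the embryonic sheath, had 20808 exon reads at 25 °C and 23879 at 16 °C (ratio 1.06, 1.04 to 1.08). The leucine-rich repeat genes sym-1 and let-4 were 1.86-fold (1.81 to 1.91) and 1.99-fold (1.87 to 2.11) higher. The cuticlin cut-3 had 106 exon reads at 25 °C and 11781 at 16 °C, 91.8-fold lower (75.8 to 112), and cut-6 was 76.9-fold lower (47.9 to 132). The members lay between these groups.

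Regulators of moulting and of the epidermis were also uneven. Of 14 such genes, 3 were past 2-fold lower, 1 was past 2-fold higher and 10 lay in between. Over all genes, 33.9% were lower and 5.9% higher by that much. nhr-23, a nuclear receptor required for moulting, was 1.24-fold lower (1.14 to 1.34), which also turns under TMM, and blmp-1, a zinc-finger factor, 1.65-fold lower (1.56 to 1.75). lin-42, the Period homologue that times moulting, had 110 exon reads at 25 °C and 2037 at 16 °C, 15.3-fold lower (12.6 to 18.7). grh-1, the Grainyhead factor of the epidermis, was 3.53-fold lower (3.23 to 3.86). In the DBL-1 pathway, the TGF-beta signal that sets body size and acts in part on cuticle collagens, 2 of 12 genes were past 2-fold lower and 2 past 2-fold higher. lon-1, a secreted protein that limits body length, had 1506 exon reads at 25 °C and 51 at 16 °C, 35.8-fold higher (27.1 to 48.3).

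Markers of cell types were measured beside the members. Of all 14313 genes that met the minimum of 10 exon reads, 33.9% were 2-fold or more lower and 8623 genes lay within 2-fold. Of 15 epidermis markers, 1 was at least 2-fold lower and 14 within 2-fold, none was at 0, and their summed exon reads were 11251 CPM at 25 °C and 8351 at 16 °C. Their median log2 change was -0.09, and 8 of the 15, lin-26 and elt-1 among them, had fewer scaled reads at 25 °C. The higher sum came from the most abundant genes of the list, sma-1, vab-10, spc-1, hmr-1 and dlg-1. Whether these genes are active in the epidermis alone was not tested, so the sum is no measure of epidermal RNA. Under TMM the direction turns for that median and for lin-26, let-805, ifa-3 and ifb-1, but not for elt-1. By contrast, 9 of 9 intestine and 8 of 8 pharynx markers with enough reads were at least 2-fold lower, with sums of 89.0 CPM at 25 °C and 737 at 16 °C in the intestine and 45.3 at 25 °C and 608 at 16 °C in the pharynx. Sums were 2511 CPM at 25 °C and 3027 at 16 °C for 9 body wall muscle markers, 487 at 25 °C and 540 at 16 °C for 8 neuron markers, and 1210 at 25 °C and 1213 at 16 °C for 10 maternal and early embryo markers. Of these, 2 muscle, 2 neuron and 0 maternal markers were 2-fold or more lower. The part of cell composition or embryonic stage in the members' values was not tested.

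**Figure D4:**
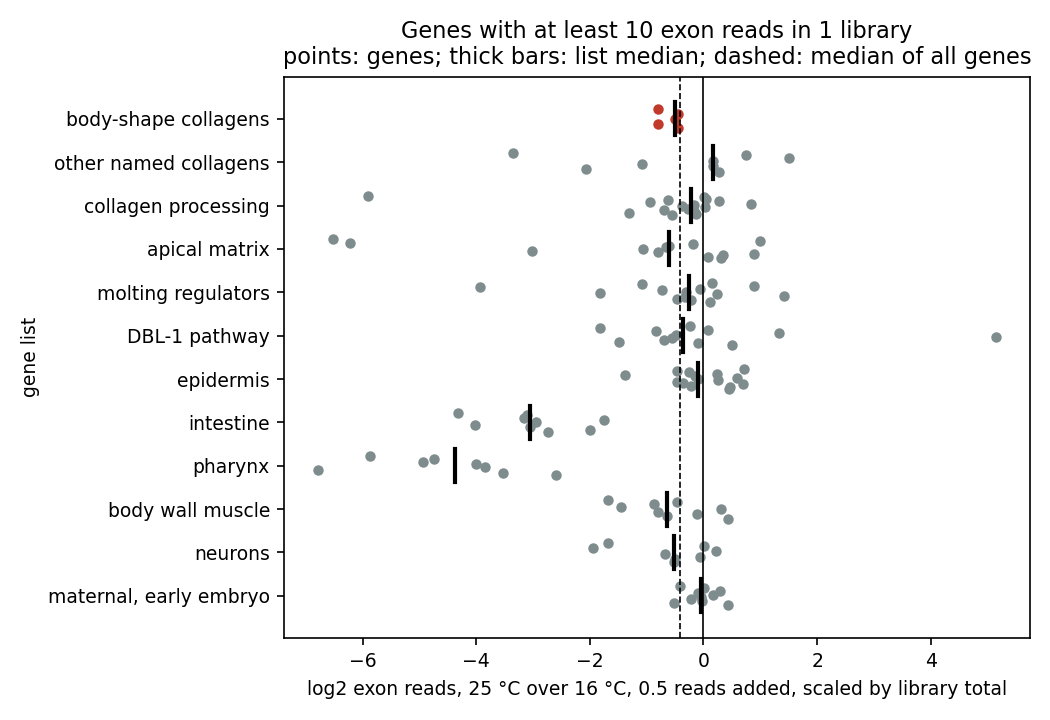
Log2 exon reads, 25 °C over 16 °C, with 0.5 reads added, of genes that met the minimum of 10 exon reads, by gene list. Points are genes, thick bars list medians and the dashed line the median of all genes at -0.42. The 5 body-shape collagens span -0.80 to -0.45, while the apical matrix list runs from -6.51 to 0.99 and the pharynx list lies wholly below -2.

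The intron-to-exon read ratio asks how much unspliced sequence accompanies a transcript. For each gene its 4 counts entered Fisher's exact test (two-sided), with Benjamini-Hochberg adjustment over 14972 genes with at least 10 combined reads, a test that compares the reads of these 2 libraries and not the temperatures. Of the 6 members tested, the ratio rose in 1, dpy-10, fell in 0 and was not called in 5. Over all genes tested, 28.1% rose and 0.614% fell. Of the 6404 genes with at least 1000 combined exon reads, 51.0% rose. In the 4544 of these with at most 100 combined intron reads, a limit that itself leaves out genes with many intron reads at 25 °C, 42.8% rose. Both limits were chosen after seeing the data.

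dpy-10 had 38 intron reads at 25 °C and 11 at 16 °C, beside 5429 exon reads at 25 °C and 9001 at 16 °C. Its ratio rose 5.73-fold (2.87 to 12.4; Fisher exact test, adjusted p = 3.55e-07), above the median of 2.09-fold over all genes tested. The authors' deposited table has the same fold of 5.73 and, from the authors' own test, an adjusted p of 0.000343 for dpy-10. How the authors adjusted it is not known here, so the 2 adjusted values are not like for like. Per base, its introns were read at 2.68% of the exon density at 25 °C and 0.468% at 16 °C. Intron reads alone, scaled by library total, were 4.18-fold higher (2.10 to 9.08), and exon reads were 1.37-fold lower. Over all genes, intron reads made up 2.47% of the 25 °C library and 1.43% of the 16 °C library, so intron reads were also higher in the library as a whole. In the annotation used here dpy-10 overlaps T14B4.19 on the same strand over 1217 bases, a span that includes 437 bases of dpy-10 intron, although no exon of T14B4.19 covers them. The table has no line for T14B4.19, so its intron reads cannot be assigned and the value for dpy-10 is uncertain.

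The ratios of the other 4 abundant members were not called, and dpy-2, dpy-3 and dpy-7 had at most 9 intron reads in a library. sqt-3 had 26 intron reads at 25 °C and 37 at 16 °C, a ratio of 1.49 (0.864 to 2.52; Fisher exact test, adjusted p = 0.311). Its intron density was 0.833% of exon density at 25 °C and 0.560% at 16 °C. The interval of sqt-3 lies below that of dpy-10 (2.87 to 12.4), the member called. dpy-2, the neighbour of dpy-10, had 9 intron reads at 25 °C and 6 at 16 °C, a ratio of 2.49 (0.792 to 8.52; Fisher exact test, adjusted p = 0.256). dpy-3 had 2 at 25 °C and 4 at 16 °C, a ratio of 1.05 (0.0950 to 7.34), and dpy-7 had 2 at 25 °C and 5 at 16 °C, a ratio of 0.689 (0.0655 to 4.21). These 4 intervals hold both 1 and the median of 2.09 over all genes, so neither an unchanged ratio nor a typical rise could be told apart at this depth. dpy-8, the sixth gene tested, had 3 intron reads at 25 °C and 0 at 16 °C beside its 4 exon reads in each library (Fisher exact test, adjusted p = 0.468).

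Pooling shows the weight of dpy-10 in the group. Over the 5 abundant members, 77 intron reads at 25 °C and 63 at 16 °C gave a ratio of 2.43 (1.72 to 3.44). Without dpy-10, 39 intron reads at 25 °C and 52 at 16 °C gave 1.53 (0.984 to 2.37). Both ratios come from summed reads, so they also depend on the share of each gene in each library. The gene left out was the one called above, and the intervals cover counting error only. The same ratio over all reads of the libraries was 1.75. Among the other collagens, the ratio rose in dpy-14 by 1.44-fold (1.18 to 1.76; Fisher exact test, adjusted p = 0.00128) and in let-2 by 4.36-fold (2.93 to 6.65; Fisher exact test, adjusted p = 3.35e-14). By the same test it rose in 3 of 8 other named body-shape and blister collagens and in 9 of 16 processing and crosslinking genes. It rose in 6 of 14 apical matrix genes, 4 of 14 regulators of moulting and the epidermis and 3 of 12 DBL-1 pathway genes, and it fell in 0 genes of these 5 lists. The share that rose was 28.1% over all genes tested and 51.0% in the 6404 genes with at least 1000 combined exon reads. In the col- family, most of it with fewer reads than that, the ratio rose in 2 of 100 genes tested and fell in 0.

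**Figure D5:**
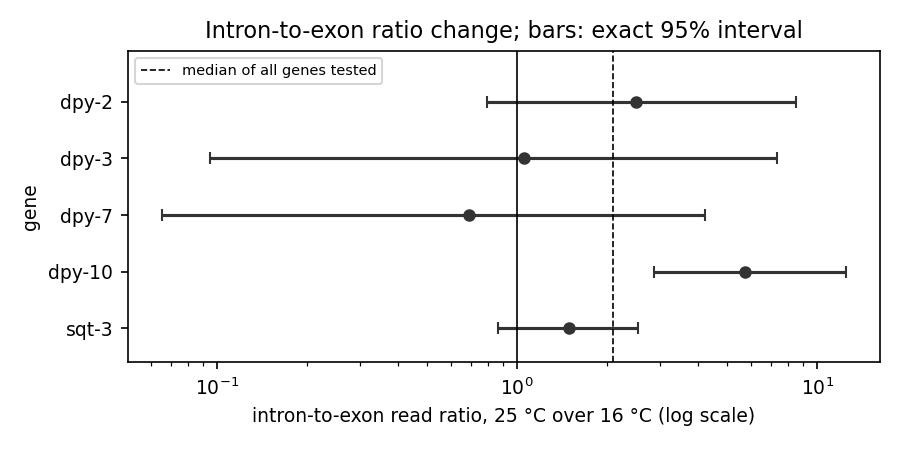
Intron-to-exon read ratio, 25 °C over 16 °C (log scale), of the 5 abundant members with exact 95% intervals that cover counting error only. The interval of dpy-10, 2.87 to 12.4, lies above 1 and above the dashed median of all genes tested at 2.09, while those of dpy-2, dpy-3, dpy-7 and sqt-3 hold both.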

How the data were processed

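The deposited counts are whole exon and intron reads per gene, not normalized, per the file headers. Per the submitters' processing notes, the authors ran HTSeq, TopHat2 and Trimmomatic. Their versions, the genome build, the annotation and the strand setting are not known here. Exp columns belong to 25 °C and Con columns to 16 °C, since the source names in the labels carry these marks. The authors also deposited a fold (a ratio of intron-to-exon ratios) with a p-value and an adjusted p-value, per the file headers.

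Exon reads were divided by each library's exon plus intron total. Ratios have exact 95% conditional intervals, which cover counting error only, since each temperature has 1 library. PCR reads are not independent molecules, so the intervals may be too narrow even for counting error. A count of 0 was set at a floor of 3 reads per library. Log2 values of lists and of the 16 °C-level windows had 0.5 reads added. Intron-to-exon ratios were tested with Fisher's exact test (scipy 1.17.1) and Benjamini-Hochberg adjustment at 0.05, tested on simulated data. TMM factors came from edgeR 4.0.16. Positions are from Ensembl release 115, by gene identifier, of which 19298 of 19487 matched.

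Members and gene lists were chosen with earlier results of these data known. All members were named, with up to 4 genes of each other list by largest exon change at 50 or more combined exon reads, dpy-11, gad-1 and 6 nearest genes. For the nearest genes only members with 50 combined exon reads entered the median. Other listed genes (dpy-17, dpy-9, dpy-31, dpy-18, pdi-2, bli-5, noah-1, sym-1, let-4, nhr-23, blmp-1) and all col- genes were named after their values were seen. Sequence features were not analysed here.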

Additional observations from a re-analysis of the deposited data

How the results depend on the processing

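No paired analysis was possible because each temperature has 1 library, so no spread between libraries is known either. The members' median exon log2 change of -0.51 became -0.38 with scaling by the median exon ratio, -0.17 with TMM and -0.42 with scaling by the median of the epidermis markers, which was added after seeing the data. All 5 abundant members stayed below 0 under these scalings, and none passed 2-fold. Members at least 2-fold lower numbered 2 with no minimum (dpy-13 and rol-6) in place of 0, and 1 (sqt-1) was then higher; 2 were lower at 1.5-fold. Over all genes, 4845 lower and 845 higher became 2915 and 339 at 4-fold, and 2757 and 330 with a minimum of 100 reads. Higher genes numbered 1611 at 1.5-fold and 1878 with no minimum. TMM gave 1374 higher and 4012 lower, so 25.5% of such genes were higher, against 14.9%. Bonferroni adjustment at 0.01 left 1108 genes with a higher and 3 with a lower intron-to-exon ratio, against 4200 and 92, and the member called was dpy-10 in each setting run. Without length scaling, 3 of the 5 abundant members kept their place in the order at each temperature. The cause was not tested beyond what the settings themselves remove. Intron reads, 2 to 38 per library in the abundant members, limit the precision of the ratio.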
